A study of Mus musculus with 16 samples.

Results

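Complement is an arm of innate immunity, and 6 of its genes are described here in the tibialis anterior, a fast muscle of the lower leg. They are C1qa, C1qb, C1qc, C4b, C3ar1 and C5ar1, found by matching Ensembl identifiers to symbols, and they are 6 of the 831 genes in the deposited table. RNA sequencing was done on whole muscle of mice at postnatal day 30, in 4 groups of 4 libraries. The mdx/miR-133b-/- group carries the mdx mutation and lacks miR-133b, and its genotype is labelled mdx-/-;miR-133b-/-. The mdx group, labelled mdx-/-, carries the mutation alone. It is a mutation of Dmd, the dystrophin gene, and mdx mice are a standard model of Duchenne muscular dystrophy. The miR-133b-/- group lacks miR-133b, a microRNA of skeletal muscle, with no Dmd mutation labelled. The Control group is labelled wild type. The study's title concerns miR-133b and the course of the dystrophy. Sex and strain are not given in the labels. Nor do they tie each library to its own animal, so the p-values below reflect how much these samples vary, and that variation may be technical.

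The C1q molecule is the recognition unit of the classical pathway and is built from the products of C1qa, C1qb and C1qc, which macrophages make in most tissues. Once C1q has bound a target, its proteases cleave C4, of which C4b is a mouse gene, and a fragment of C4 becomes part of the enzyme that cleaves C3. The small fragments C3a and C5a, the anaphylatoxins, act on myeloid cells through the G-protein coupled receptors encoded by C3ar1 and C5ar1. In dystrophic muscle, fibres die and regenerate, and macrophages gather around them.

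The 3p strand of miR-133b is shown because 2 of the 4 groups lack it. Its RefSeq sequence (GRCm38.p6, chr1:20682834-20682855, plus strand) is given 5′ to 3′ with the seed, bases 2 to 8, in capitals.
miR-133b-3p: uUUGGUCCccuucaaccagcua
The match to this seed, GGACCAA, was not found in the annotated 3′ UTR of any of the 6 complement genes. It was present in 89 of the 780 listed genes that have an annotated 3′ UTR (11.4%). The absence says only that these letters are not in these UTRs.

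The unit is the scaled read: the authors multiplied each library's read counts by a single factor. Reads in the listed genes came to between 2356990 and 6000033 a library; how many reads fell in other genes is unknown. The table is a selection: every listed gene has a difference of 1.72-fold or more, up or down, between the mdx/miR-133b-/- mean and the miR-133b-/- mean, so shares of genes called are shares of a selected list. The lowest mean of a listed gene over the 16 libraries was 50.1 scaled reads. C1qa, C1qc, C4b and C3ar1 averaged less than that in Control and in miR-133b-/-. They reach it only through the mdx groups, which bears on the calls of those groups against Control. Of the comparisons below, mdx against Control alone has fold changes that use no mdx/miR-133b-/- or miR-133b-/- library. Its limma SEs and p-values rest on a spread estimated from all 16 libraries. Without miR-133b-/- replicate 1, for example, the limma adjusted p of C5ar1 in that comparison moved from 0.0099 to 0.000783. Dmd and miR-133b are not listed, so no listed gene checks the genotypes. Groups were taken from the sample titles. In 14 of the 16 samples the description carries a code that belongs to a different title, and groups made from the descriptions would each hold a library of all 4 genotypes. Among the markers listed, those of macrophages moved with mdx: their 9 listed genes summed to 3556 to 13528 scaled reads in mdx/miR-133b-/-, 6256 to 9665 in mdx, 922 to 2448 in miR-133b-/- and 1405 to 2136 in Control. In bulk muscle, more cells of a type and more RNA per cell cannot be told apart.

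The 3 C1q genes lie side by side on the minus strand of chromosome 4 (GRCm38), within 18675 bases. C1qb (ENSMUSG00000036905) occupies 136880129 to 136886187, C1qc (ENSMUSG00000036896) 136889804 to 136893065 and C1qa (ENSMUSG00000036887) 136895917 to 136898803. All 3 are protein coding. Per kilobase of longest transcript, C1qb was the most abundant of the 6 genes in mdx at 218 ± 64.4 scaled reads per kb (SD, n = 4). C1qa followed at 149 ± 33.4 and C1qc at 135 ± 33.3, and the libraries of each neighbour in this order overlapped. Then came C5ar1 at 65.2 ± 13.8 and C3ar1 at 48.0 ± 9.84, which overlapped each other and lay below the C1q chains, and C4b at 18.8 ± 4.44 scaled reads per kb, below all the others. For C1qc the length matters: its longest transcript has 1203 bases and its annotated exons cover 1931. Over all exons its mdx mean was 83.9 scaled reads per kb. Its separation from C5ar1 depends on that length, and its place in the other groups may too. In mdx/miR-133b-/- the levels per kb were 198 ± 84.3 for C1qb, 129 ± 58.3 for C1qc, 97.3 ± 76.5 for C1qa, 66.0 ± 41.5 for C3ar1, 64.2 ± 20.5 for C5ar1 and 15.6 ± 4.43 for C4b. C1qb was again first and C4b last on average, and each neighbouring pair in this order overlapped except C5ar1 and C4b. In Control the C1qb level was 44.1 ± 4.61 scaled reads per kb, above every library of C1qa at 25.9 ± 5.42, C1qc at 24.0 ± 7.45 and C5ar1 at 21.7 ± 3.85, which overlapped each other. C4b stood at 7.52 ± 2.04 and C3ar1 at 5.43 ± 5.24 scaled reads per kb in Control, and these overlapped too. In miR-133b-/- C1qb was at 49.3 ± 20.2, C1qa at 24.4 ± 21.1, C5ar1 at 21.9 ± 18.4 and C1qc at 19.0 ± 5.998 scaled reads per kb. C4b at 5.45 ± 2.56 and C3ar1 at 4.27 ± 3.15 were the lowest there on average, and each neighbouring pair overlapped except C1qc and C4b.

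Promoters of C1qb and C1qc are shown because C1qb was the listed gene nearest to C1qc in pattern over the libraries, as described with the nearest genes. The promoter table holds 4 of the 6 genes, these, C3ar1 and C5ar1. The RefSeq windows of GRCm38.p6 run from 250 bases before to 50 bases after the start, on the minus strand, with matches to GAGGAA, the core of the PU.1 site of myeloid cells, and to TGCTGA, a MAF recognition core, in capitals.
C1qb chr4:136886151-136886450: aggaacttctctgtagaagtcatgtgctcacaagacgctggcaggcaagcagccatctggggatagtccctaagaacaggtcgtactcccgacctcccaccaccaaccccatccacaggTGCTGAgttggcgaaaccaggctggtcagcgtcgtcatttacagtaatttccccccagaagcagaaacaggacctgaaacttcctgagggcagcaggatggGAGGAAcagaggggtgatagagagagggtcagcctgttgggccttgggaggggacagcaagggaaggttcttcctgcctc
C1qc chr4:136892865-136893164: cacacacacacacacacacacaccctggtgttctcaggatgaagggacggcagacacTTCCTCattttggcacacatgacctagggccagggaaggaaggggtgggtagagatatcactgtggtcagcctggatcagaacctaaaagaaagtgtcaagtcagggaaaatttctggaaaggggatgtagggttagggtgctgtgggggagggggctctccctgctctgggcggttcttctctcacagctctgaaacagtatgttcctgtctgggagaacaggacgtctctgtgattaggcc
C1qb holds GAGGAA at -30 to -25 and TGCTGA at -131 to -126 from the start. C1qc holds GAGGAA on the opposite strand at -193 to -188, printed as TTCCTC, and no TGCTGA. These positions count from the RefSeq start. In GENCODE the C1qc gene begins further upstream, at 136893065, and the match is nearer to that start. The motif GAGGAA was present in 2 of the 4 promoters and in 28.3% of all 32851, on either strand. TGCTGA was present in 3 of 4 (C1qb, C3ar1 and C5ar1) and in 19.5% of all. An ETS-IRF composite motif was in 0 of 4 and in 2.72% of all, and an interferon response motif in 0 of 4 and in 3.44% of all. A match is a description of letters and not evidence that a factor binds.

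Expression of all 6 genes was higher in mdx than in Control. C1qa, which encodes the A chain, had 134, 135, 207 and 146 scaled reads in mdx replicates 1 to 4, against 22.2, 32.2, 21.9 and 31.3 in Control replicates 1 to 4. Every mdx library lay above every Control library. The difference was 5.60-fold, or 2.48 on the log2(value + 1) scale (SE 0.47, limma adjusted p = 0.000291). C1qb, the B chain, had 210, 250, 327 and 162 scaled reads in mdx, against 55.0, 46.7, 43.1 and 47.0 in Control, and rose 4.72-fold (log2 2.24, SE 0.32, limma adjusted p = 3.95e-05). C1qc, the C chain, had 129, 154, 220 and 145 scaled reads in mdx, against 28.6, 19.6, 26.3 and 41.0 in Control, and rose 5.52-fold (log2 2.47, SE 0.36, limma adjusted p = 4.02e-05). The groups did not overlap for either gene, and mdx replicate 3 was the highest mdx library for all 3 chains.

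C4b (ENSMUSG00000073418, chromosome 17, 34728380 to 34743882, minus strand) encodes a C4 protein. It had 81.4, 107, 132 and 83.6 scaled reads in mdx, against 42.2, 53.1, 26.3 and 40.3 in Control. The groups did not overlap, and the rise was 2.49-fold (log2 1.31, SE 0.36, limma adjusted p = 0.00407), the smallest of the 6. Of the 50-base windows of its transcript, 1875 of 5330 (35.2%) also occur in its near copy C4a, so the assignment of reads between the 2 genes is uncertain.

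C3ar1, the C3a receptor (ENSMUSG00000040552, chromosome 6, 122847138 to 122856161, minus strand), had the largest rise of the 6. It had 180, 196, 269 and 181 scaled reads in mdx, against 55.7, 21.5, 10.2 and 5.97 in Control. The Control values were spread over 9.34-fold, from 8 to 78 reads before scaling, and the highest of them was still below every mdx value. The rise was 11.5-fold (log2 3.53, SE 0.60, limma adjusted p = 0.000127). Leaving out 1 library at a time, the log2 difference ranged from 3.08 to 4.08, and it was 2.90 with a pseudocount of 10. C5ar1, the C5a receptor (ENSMUSG00000049130, chromosome 7, 16246743 to 16259540, minus strand), had 125, 182, 205 and 151 scaled reads in mdx, against 59.3, 40.4, 59.2 and 61.2 in Control. It rose 2.96-fold (log2 1.57, SE 0.50, limma adjusted p = 0.0099), again with no overlap.

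In all, 6 of 6 genes were called higher in mdx at an adjusted p of 0.05, where 44.5% of the 831 listed genes were called higher. C1qa, C1qc, C4b and C3ar1 reach the lowest mean of the list only through the mdx groups, which favours such calls. For all 6 the groups did not overlap, as for 46.2% of the listed genes in the same direction. The median log2 fold change of the 6 was 2.35, and that of all listed genes was 0.44. Ranked by log2 fold change among the 831 genes, C3ar1 was number 13, C1qa 45, C1qc 50, C1qb 70, C5ar1 140 and C4b 186. Scaling by relative log expression factors, taken from the listed genes, moved the median of all of them to 0.09, and 6 of 6 were still called higher. Adding 1 before the log draws in the change of genes with low values. The folds compare means of logs, so they can also exceed the ratio of the group means. For C3ar1 those means were 207 scaled reads in mdx and 23.4 in Control, a smaller ratio than the 11.5-fold above.

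**Figure D1:**
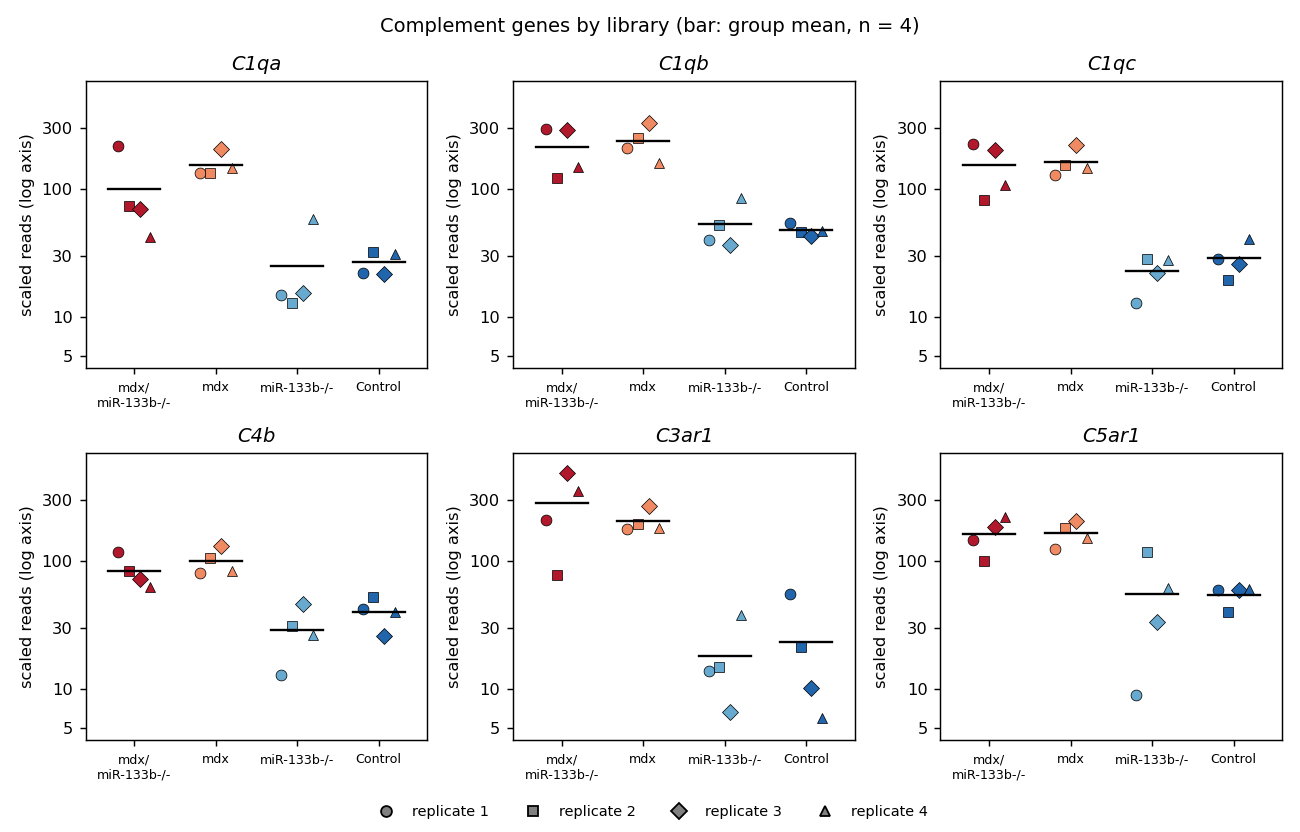
Scaled reads (log axis) of the 6 complement genes in each library, with the groups mdx/miR-133b-/-, mdx, miR-133b-/- and Control from left to right, points for the 4 libraries of each and a bar at their mean. Every mdx library lies above every Control library in all 6 genes. On the log axis the mdx/miR-133b-/- libraries are more spread than the mdx ones in all 6 genes, most for C1qa and C3ar1.

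The double mutant was compared with mdx to ask what loss of miR-133b adds in dystrophic muscle. C1qa had 219, 74.2, 69.9 and 42.1 scaled reads in mdx/miR-133b-/- replicates 1 to 4, against 134, 135, 207 and 146 in mdx. Replicate 1 of the double mutant was above every mdx library and the other 3 were below every mdx library. The log2 difference was -0.87 (SE 0.47, 95% interval -1.84 to 0.11, limma adjusted p = 0.215). Without mdx/miR-133b-/- replicate 1 it was -1.33 (limma adjusted p = 0.0365), and it was -0.19 once the trends with GC content and length were removed within each library.

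C1qb had 298, 123, 290 and 149 scaled reads in mdx/miR-133b-/-, against 210, 250, 327 and 162 in mdx. Replicates 1 and 3 of the double mutant were high and replicates 2 and 4 low (log2 difference -0.20, 95% interval -0.87 to 0.47). C1qc followed the same order, with 227, 82.8, 202 and 108 scaled reads in mdx/miR-133b-/-, against 129, 154, 220 and 145 in mdx (log2 difference -0.16, interval -0.90 to 0.59). For C4b the values were 117, 83.5, 72.8 and 62.5 scaled reads in mdx/miR-133b-/-, against 81.4, 107, 132 and 83.6 in mdx (log2 difference -0.28, interval -1.02 to 0.47). The groups overlapped for these 3 genes as well.

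The receptor C3ar1 had 211, 78.9, 493 and 354 scaled reads in mdx/miR-133b-/-, against 180, 196, 269 and 181 in mdx. Replicates 3 and 4 were above every mdx library and replicate 2 was below them all (log2 difference 0.19, interval -1.06 to 1.44). C5ar1 had 146, 100.1, 186 and 221 scaled reads in mdx/miR-133b-/-, against 125, 182, 205 and 151 in mdx (log2 difference -0.06, interval -1.09 to 0.98). limma called 0 of the 6 genes in either direction (adjusted p from 0.215 to 0.953), where 19.5% of listed genes were called. Those 162 listed genes became 49 without mdx/miR-133b-/- replicate 4, 70 without its replicate 3, 126 without its replicate 2 and 197 without its replicate 1. They became 71 without mdx replicate 1, 111 without mdx replicate 2, 56 without mdx replicate 3 and 84 without mdx replicate 4. None of the 6 had an unadjusted p under 0.05, against 265 listed genes, and limma-voom on the recovered reads called 0 of the 6 and 171 listed genes. The intervals above include differences of more than 1.5-fold in at least 1 direction, so equal levels are not shown. The median log2 fold change of the 6 was -0.18, against -0.04 for all listed genes.

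Without dystrophin loss, miR-133b-/- was compared with Control. C1qa had 15.0, 12.8, 15.4 and 58.3 scaled reads in miR-133b-/-, against 22.2, 32.2, 21.9 and 31.3 in Control. Replicate 4 of miR-133b-/- was above every Control library and the other 3 were below them. C5ar1 was the most spread gene, with 9, 118, 33.8 and 62.1 scaled reads in miR-133b-/-, against 59.3, 40.4, 59.2 and 61.2 in Control. The 2 groups overlapped for all 6 genes, and the remaining 4 had ranges in miR-133b-/- of 36.8 to 84.8 scaled reads for C1qb, 13.0 to 28.6 for C1qc, 13.0 to 46.3 for C4b and 6.62 to 37.9 for C3ar1. The log2 differences ran from -0.54 (C4b, interval -1.29 to 0.21) to 0.08 (C1qb, interval -0.58 to 0.75), and limma called 0 of 6 (adjusted p from 0.699 to 0.959). It called 0.0% of the listed genes, with 84 genes and 0 of the 6 at an unadjusted p under 0.05, and limma-voom called 0 as well.

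The difference between those 2 effects of miR-133b loss, in mdx and in muscle with dystrophin, was also tested. The interaction ran from -0.52 (C1qa, interval -1.90 to 0.86) to 0.40 (C5ar1, interval -1.06 to 1.87) on the log2 scale. limma called 0 of 6 (adjusted p from 0.692 to 0.883), where 0.963% of listed genes were called. Those 8 listed genes became 110 without miR-133b-/- replicate 2 and 15 without mdx/miR-133b-/- replicate 1, with 0 of the 6 called in either case. None of the 6 had an unadjusted p under 0.05, against 172 listed genes, and limma-voom called 0 of the 6.

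Against Control, which the mdx comparison shares, mdx/miR-133b-/- was higher for 6 of 6 genes, where 54.3% of listed genes were called higher, and the groups did not overlap for any of the 6, as for 44.9% of listed genes. C3ar1 rose 13.1-fold (log2 3.71, SE 0.60), C1qc by 2.31 on the log2 scale and C1qb by 2.04. C1qa rose by 1.62 (SE 0.47), C5ar1 by 1.51 and C4b by 1.04 (SE 0.36, limma adjusted p = 0.0113). With the trends with GC content and length removed within each library the rise was 2.67 for C1qa, 2.97 for C1qb and 3.20 for C1qc, and with scaling by total listed reads it was 2.37, 2.80 and 3.07 for these and 1.80, 4.47 and 2.28 for C4b, C3ar1 and C5ar1. With a pseudocount of 10 C3ar1 rose by 3.10. C4b was the member whose call was lost with relative log expression factors (0.64, adjusted p = 0.109). Against miR-133b-/-, the pair on which the list appears chosen, the folds are a description: 14.3 for C3ar1, 6.25 for C1qc, 3.92 for C5ar1, 3.91 for C1qa, 3.88 for C1qb and 2.98 for C4b. There 6 of 6 were called higher (59.9% of listed genes) and 4 of 6 did not overlap (47.9%), C1qa and C5ar1 being the exceptions.

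**Figure D2:**
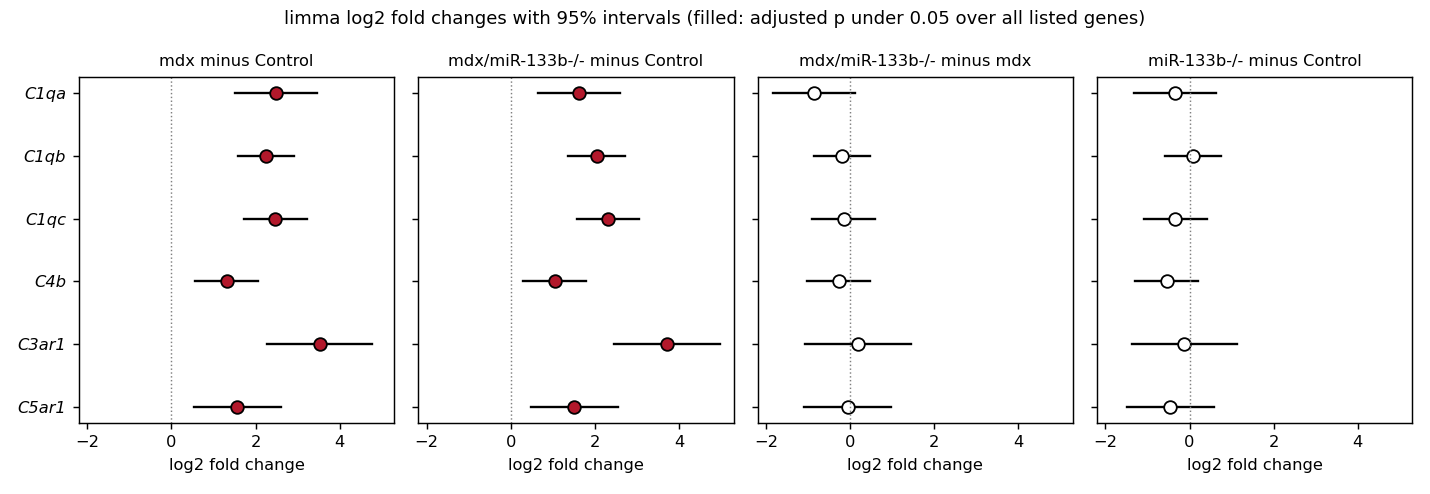
Log2 fold change, on the log2(value + 1) scale, with 95% interval, of each complement gene in each comparison. The mdx and the mdx/miR-133b-/- differences from Control lie above 0 for all 6 genes, and the intervals of mdx/miR-133b-/- against mdx and of miR-133b-/- against Control include 0.

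The proportions of the genes within a library were compared next. The ratios given are those of reads, which no scaling factor can move, and the tests were run on differences of log2(value + 1), which the factor touches slightly. In mdx the C1qb to C1qa read ratio was 1.57, 1.85, 1.58 and 1.11, and the C1qc to C1qa ratio was 0.967, 1.14, 1.06 and 0.996. In Control these ratios ranged from 1.45 to 2.48 and from 0.608 to 1.31. Neither difference between mdx and Control passed (log2 differences -0.24 and -0.02, exact permutation p = 0.429 and 0.971, n = 4 each). C4b to C1qa, by contrast, was 0.573 to 0.792 in mdx and 1.20 to 1.90 in Control, without overlap (log2 difference -1.17). C5ar1 to C3ar1 was 0.692 to 0.931 in mdx and 1.06 to 10.25 in Control, also without overlap (log2 difference -1.96). Some 95% counting intervals of single libraries did overlap. For C4b to C1qa they were 0.719 to 2.02 in Control replicate 3 and 0.646 to 0.970 in mdx replicate 2. For C5ar1 to C3ar1 they were 0.772 to 1.47 in Control replicate 1 and 0.793 to 1.09 in mdx replicate 2. With the GC and length trends removed, the ratio of C5ar1 to C3ar1 was 0.977 in mdx replicate 2, against 0.892 in Control replicate 1, so those groups overlapped. Without that removal, C4b to C1qa and C5ar1 to C3ar1 each gave the smallest p that 4 against 4 allows, 0.0286 by the two-sided exact permutation test. The adjusted p over the 5 ratios was 0.0714 for each, which does not pass. From the reads with no pseudocount the log2 differences were -1.19 and -2.05, with the same p. C1qa to Adgre1, the gene of the macrophage antigen F4/80, was 0.414 to 0.633 in mdx and 0.330 to 0.824 in Control (log2 difference -0.02, exact permutation p = 0.971).

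In mdx/miR-133b-/- the C1qb to C1qa ratio was 1.36 and 1.66 in replicates 1 and 2, and 4.15 and 3.53 in replicates 3 and 4. The 95% counting intervals of replicates 3 and 4 were 3.40 to 5.10 and 2.66 to 4.74, apart from those of the mdx libraries. C1qc to C1qa did the same, with 1.04, 1.12, 2.88 and 2.56. Over the 4 libraries, neither difference from mdx passed (log2 differences 0.67 and 0.71, exact permutation p = 0.229 and 0.143, n = 4 each). C1qa to Adgre1 was 0.506, 0.487, 0.139 and 0.140 in mdx/miR-133b-/-, against 0.414 to 0.633 in mdx, low in replicates 3 and 4 (log2 difference -0.97, exact permutation p = 0.143, n = 4 each), and the difference was -0.23 with the GC and length trends removed. The C1qb and C1qa reads were also compared between the libraries of a group by chi-square, on 3 degrees of freedom. It was 115 in mdx/miR-133b-/-, 19.8 in mdx, 16.4 in miR-133b-/- and 4.67 in Control. It grows with the number of reads, so it does not compare the spread of the groups. The ratio ranged from 1.36 to 4.15 in mdx/miR-133b-/- and, from fewer reads, from 1.46 to 4.11 in miR-133b-/-. The high ratio was also seen outside the double mutant: in miR-133b-/- replicate 2, C1qb to C1qa was 4.11 (interval 2.43 to 7.31, from 74 and 18 reads) and C1qc to C1qa 2.22, while the other 3 libraries of that group had C1qb to C1qa ratios of 2.67, 2.38 and 1.46. In Control, C1qb to C1qa was 2.48 in replicate 1 and 1.97 in replicate 3, also above the highest mdx ratio of 1.85. Counting intervals cover counting error only. Replicates 3 and 4 of mdx/miR-133b-/- were also the libraries with the steepest trend with GC content. It was -0.45 and -0.49 on the log2 scale per 10 percentage points of GC, against -0.06 and -0.20 in replicates 1 and 2 of that group. The trend was 0.0016 to 0.13 in mdx, and -0.28 and 0.03 in miR-133b-/- replicates 1 and 2. These trends were fitted over the selected genes, to differences from each gene's mean over the 16 libraries. Differences between genotypes can therefore enter them, and be taken out with them. C1qa has the highest GC content of the 6, at 59.5%, C1qb and C1qc have 57.4% and 57.5%, and C3ar1 has 43.0%, against a median of 49.1% in the table. Removing the trends gave C1qb to C1qa ratios of 3.79 and 3.19 in replicates 3 and 4, but for genes so close in GC content a linear trend can move the ratio only slightly. The part of GC content or RNA quality in these ratios was not tested.

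**Figure D3:**
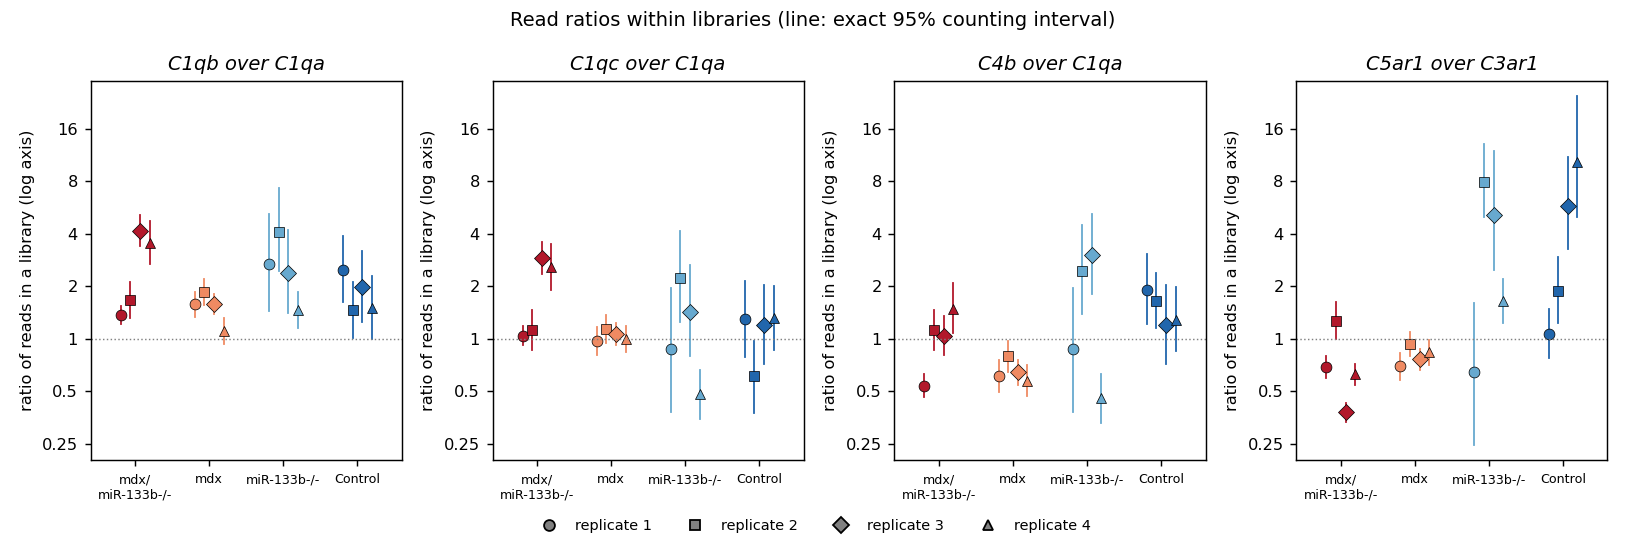
Ratio of reads within each library for 4 pairs of complement genes (log axis), by group, with a point per library and a line for its 95% counting interval. The points of C4b to C1qa and of C5ar1 to C3ar1 do not overlap between mdx and Control, though some of their counting intervals do. The C5ar1 to C3ar1 ratios overlap once the GC and length trends are removed. The C1qb to C1qa ratio lies above every mdx library in 2 libraries of mdx/miR-133b-/-, at 4.15 and 3.53, and, among others of its group, in miR-133b-/- replicate 2, at 4.11. Control replicates 1 and 3 also lie above every mdx library, at 2.48 and 1.97.

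For each gene, the listed genes nearest in pattern were found by the root mean square difference over the 16 libraries in log2(value + 1), centred per gene. C1qc was nearest to C1qb (0.40), and C1qb was nearest to Sirpa, a myeloid inhibitory receptor (0.33), and Cd48 (0.35), with C1qc ranked 8 of 830 genes. C1qa was nearest to H2-Aa, a chain of MHC class II (0.34), and to Csf1r, the CSF1 receptor (0.49), with C1qb ranked 7 and C1qc 20. H2-Aa had 2348, 859, 1001 and 473 scaled reads in mdx/miR-133b-/- and 2274, 2290, 2248 and 1244 in mdx, high in replicate 1 of the double mutant and lower in the other 3, as for C1qa. C3ar1 was nearest to Mpeg1, a pore-forming protein of macrophages (0.33), and Ctss, cathepsin S (0.40). Mpeg1 had 1573, 324, 2618 and 1281 scaled reads in mdx/miR-133b-/-, highest in replicate 3 and lowest in replicate 2, as for C3ar1. C4b was nearest to Cd276, a B7 family protein (0.39), and Inpp5d, the phosphatase SHIP1 of blood cells (0.40). C5ar1 was nearest to Mmp19, a matrix metalloproteinase (0.43), and Arl4c, a small GTPase (0.47). C3ar1 ranked 458 of 830 in likeness to C1qa, and C1qa ranked 104 in likeness to C3ar1. The measure also grows where 2 genes move the same way by different amounts.

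**Figure D4:**
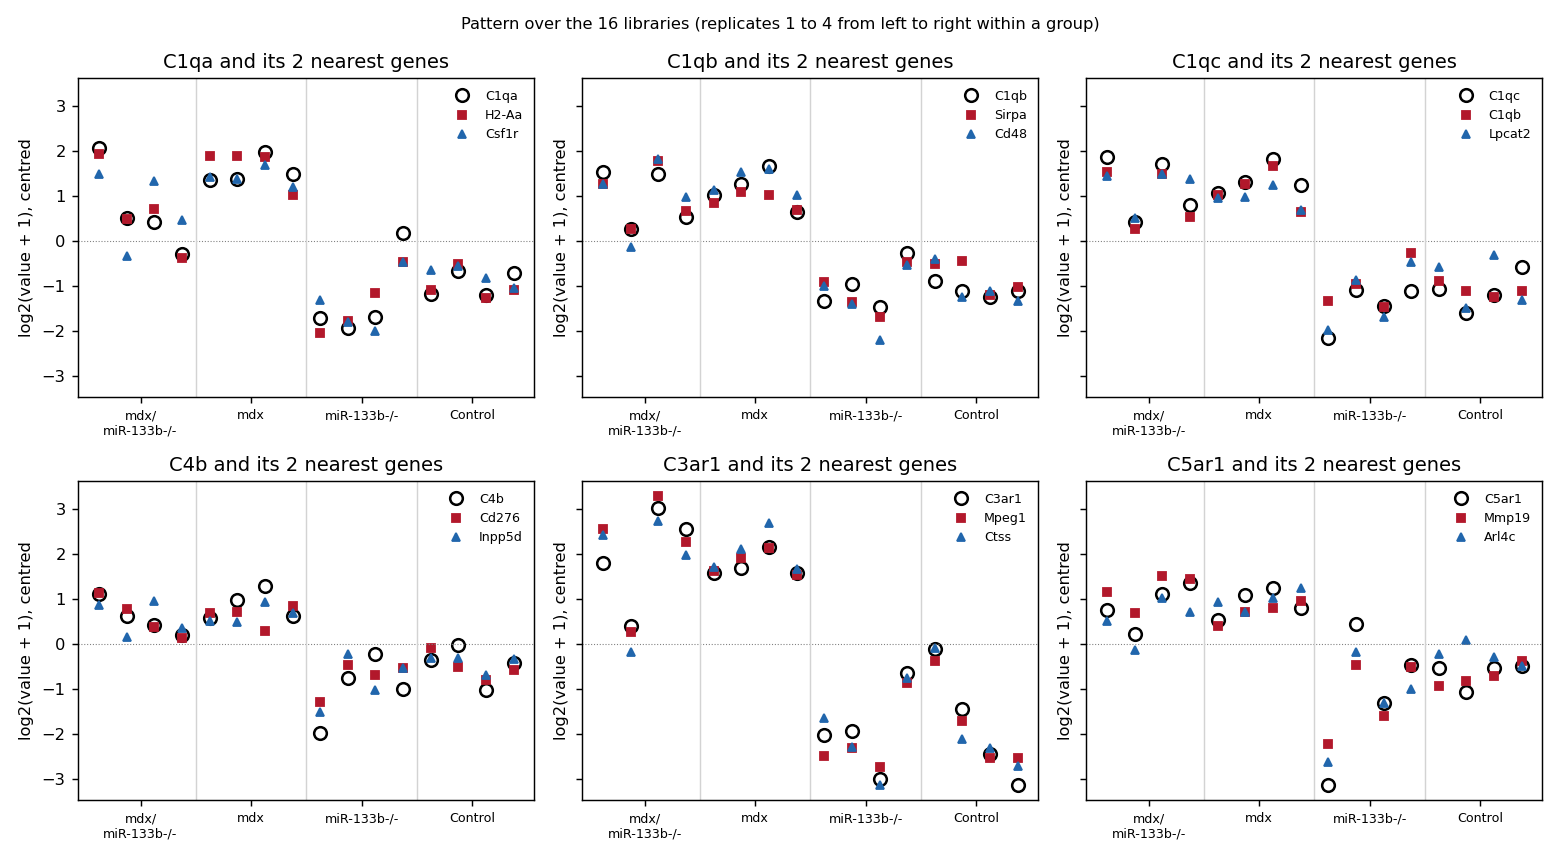
Centred log2(value + 1) of each complement gene (open circles) and of its 2 nearest genes (squares and triangles) in the 16 libraries, with replicates 1 to 4 left to right in each group. C1qa and H2-Aa are both high in mdx/miR-133b-/- replicate 1 and lower in the other 3, while C3ar1 and Mpeg1 are high in replicate 3.

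The wider complement list held 50 genes, of which 8 are listed: the 6 described and Itgax and Itgb2, chains of complement receptors. All 8 were called higher in mdx than in Control, where 44.5% of listed genes were, and 0 of 8 were called in mdx/miR-133b-/- against mdx, where 19.5% of listed genes were. Itgax had 81.4, 119, 111 and 96.5 scaled reads in mdx, against 8.58, 3.79, 5.12 and 1.49 in Control. Its rise was 19.8-fold (log2 4.31, SE 0.77), and Itgb2 rose 6.44-fold (log2 2.69, SE 0.44). Both averaged less than 50.1 scaled reads, the lowest mean of the list, in Control and miR-133b-/-, so they too reach it only through the mdx groups. Of the 9 listed macrophage genes (of 16), 8 were higher in mdx, and Mrc1, the mannose receptor, stood at 0.33 on the log2 scale (limma adjusted p = 0.234). Of those 8, Ms4a7, Laptm5 and Cx3cr1 had Control means of 10.6, 26.0 and 41.2 scaled reads. Their miR-133b-/- means were 10.2, 12.6 and 39.6. They too pass the list's lowest mean only through the mdx groups, which favours calling them higher. The other listed macrophage genes had Control means above it. All 3 listed fibroblast genes (of 8) and all 6 listed regenerating fibre genes (of 7) were higher in mdx, again beside 44.5% of all listed genes, and the 1 listed endothelial gene was lower. Of the 4 listed mature fast fibre genes (of 6), 2 were lower in mdx than in Control, 4 were lower in mdx/miR-133b-/- than in Control and 3 were lower in mdx/miR-133b-/- than in mdx. They summed to 256312 to 320334 scaled reads in mdx/miR-133b-/-, 375355 to 552424 in mdx, 314869 to 730433 in miR-133b-/- and 592292 to 730110 in Control. Lower calls were common in the list. With a pseudocount of 0.5, mdx against Control had 550 of 831 genes called, 370 of them higher and the others lower. By the same setting 451 of 758 calls were higher in mdx/miR-133b-/- against Control, and 62 of 162 in mdx/miR-133b-/- against mdx. No neutrophil, lymphocyte or mast cell marker is listed, so those were not analysed here. The part of macrophage numbers or of fibre content in the complement differences was not tested.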

How the data were processed

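RNA from whole tibialis anterior muscle was isolated with the Aurum kit and treated with DNase, per the labels' protocols. HISAT2, HTSeq and GRCm38 are named in the submitters' processing notes, and their versions and whether counting used strand are not stated there or in the labels. The deposited values are a signal per gene and library, made by the authors from whole reads: in each column 1 factor (0.459 to 1) turned 100% of the values into whole numbers, within 0.001 read. All 831 identifiers matched the annotation GENCODE M21, and no sample column was left unmapped. Replicates differed by more than sampling noise in all 24 pairs (chi-square per degree of freedom at least 38.4).

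Log2(value + 1) was fitted with limma 3.58.1 in R 4.3.3, with 1 mean per group over all 16 libraries, a trended prior variance, no filter, and p-values adjusted by Benjamini-Hochberg over the 831 genes (threshold 0.05). Ratios within a library were tested as differences of log2(value + 1) between 2 genes, by two-sided exact permutation tests in scipy 1.17.1, adjusted over the 5 ratios of a comparison, and the printed ratios are of recovered reads, with exact binomial intervals at 95%. Only the limma fit of mdx against Control was run on simulated data, with normal noise of 1 SD per gene in all groups. No genes were selected on a contrast there, unlike in the real list, and the ratio tests were not simulated. Named genes were the 6 members, every listed gene of a complement list, and the 2 listed genes nearest to each member in pattern. Cell type markers were given by count and summed level, apart from the macrophage genes named above. The members and lists were chosen with earlier results of these data known. Alternatives covered scaling, a minimum mean of 100, a pseudocount of 0.5 or 10, an untrended variance, the compared groups alone, a replicate block, GC and length trends and each library left out; limma-voom on the recovered reads, the ratios with GC and length trends removed and the ratios of reads with no pseudocount were added after seeing the data. Promoters came from RefSeq (GRCm38.p6).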

Additional observations from a re-analysis of the deposited data

Results flagged for a closer look

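In groups of 4, a library was picked out when its gap to the nearest other exceeded Dixon's critical share of the group's range at 95%. Of 44 groups examined 4 were picked out, and chance picks out about 1 in 20 groups. C1qa in mdx replicate 3 stood at 207 scaled reads, above the other 3 mdx libraries. C1qa in miR-133b-/- replicate 4 stood at 58.3 scaled reads, above the other 3 libraries of its group. C5ar1 in Control replicate 2 stood at 40.4 scaled reads, below the other 3 Control libraries. The log2 ratio of C1qc to C1qa, from values with a pseudocount of 1, in Control replicate 2 was -0.69, below the other 3. The causes were not tested.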

How the results depend on the processing

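All 6 genes stayed called higher in mdx against Control under each alternative, except that a minimum mean of 100 left 3 of them in the table, all called; the same 3 of 3 held for mdx/miR-133b-/- against Control, where relative log expression factors called 5 of 6. Leaving out 1 library gave 0 to 1 calls in mdx/miR-133b-/- against mdx, 6 in both comparisons of an mdx group with Control, and 0 in miR-133b-/- against Control and in the interaction. No result that was called turned round. In mdx/miR-133b-/- against mdx, total listed reads turned C1qb (0.064), C1qc (0.11) and C5ar1 (0.21) positive; removing the GC and length trend gave 0.38, 0.41 and 0.012 for those 3 and -0.10 for C3ar1, with or without the replicate block. In miR-133b-/- against Control, C3ar1 was 0.019 with relative log expression factors and 0.030 with limma-voom. The interaction was 0.11 for C1qa and 0.28 for C1qb with the GC and length trend removed, with or without the block, and -0.014 for C1qc with relative log expression factors. Of the ratios, C1qa to Adgre1 was -0.0068 in miR-133b-/- against Control with a pseudocount of 0.5 and 0.38 in mdx against Control with the GC and length trend removed; C1qc to C1qa in miR-133b-/- against Control was -0.030 with a pseudocount of 10 and -0.00106 with the trend removed; C5ar1 to C3ar1 in mdx/miR-133b-/- against mdx was 0.12 with it removed; from reads with no pseudocount C1qa to Adgre1 was 0.0055 in mdx against Control and -0.015 in miR-133b-/- against Control. Their causes were not tested.

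Leaving out 1 library at a time also changed the sign of results that were not called. In mdx/miR-133b-/- against mdx the log2 difference ranged from -0.39 to 0.029 for C1qb, from -0.38 to 0.10 for C1qc, from -0.17 to 0.70 for C3ar1 and from -0.22 to 0.16 for C5ar1, and from -1.33 to -0.55 for C1qa. In miR-133b-/- against Control it ranged from -0.16 to 0.23 for C1qb, from -0.57 to 0.44 for C3ar1 and from -0.98 to 0.21 for C5ar1. The interaction ranged from -0.059 to 0.44 for C1qc, from -0.065 to 0.52 for C4b, from -0.25 to 0.83 for C3ar1 and from -0.27 to 0.92 for C5ar1. Among ratios in mdx against Control, C1qc to C1qa ranged from -0.27 to 0.083 and C1qa to Adgre1 from -0.23 to 0.20. In miR-133b-/- against Control, C1qc to C1qa ranged from -0.32 to 0.39, C4b to C1qa from -0.58 to 0.30, C5ar1 to C3ar1 from -0.87 to 0.29 and C1qa to Adgre1 from -0.35 to 0.37. C5ar1 to C3ar1 in mdx/miR-133b-/- against mdx ranged from -0.55 to 0.031.

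The replicate numbers did not pair the libraries: of 24 same-numbered pairs, deviations correlated at -0.28 to 0.25 and 2 exceeded 0.1, and 1 of 16 libraries correlated best with its own number. With the replicate block the calls among the 6 genes were 6, 0, 0, 6 and 0, as without it, and listed genes called in mdx/miR-133b-/- against mdx numbered 120, against 162. That count was 55 with the GC and length trend removed and 92 with total listed reads. Calls in mdx against Control split 260 higher of 530 with relative log expression factors and 478 of 511 with total listed reads, against 370 of 550. A planned quasi-likelihood count test on recovered reads was not run. Depth limits C3ar1 most, with 8 to 78 reads in Control.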
